A study of Mus musculus with 4 samples.

Results

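GABA-A receptors are ligand-gated chloride channels that carry most fast inhibition in the brain, and each is built from several subunits drawn from the α, β, γ, δ, ε, π, θ and ρ families. Many receptors with a γ subunit, though not all, cluster at synapses, where they give brief inhibitory currents. Receptors with α4 and δ, or with α5, lie largely outside synapses and give a steady inhibitory current. In the hippocampus α5 is abundant in pyramidal cells, and the α4 and δ pair is typical of dentate granule cells. The data here are the transcripts of 7 subunit genes, Gabra2, Gabra3, Gabra4 and Gabra5 (α2 to α5), Gabrb1 and Gabrb2 (β1 and β2) and Gabrd (δ), taken by symbol from the count files. They are 7 of the 19 GABA-A subunit genes in the files and of 22609 gene symbols in all, and all 7 passed the filter on low counts.

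The hippocampus was profiled by RNA-Seq in 4 libraries, 2 from each genotype (FLOX+GCI and FBN-ARO-KO+GCI). The mice were female, ovariectomized and, per the study's methods, between 3 and 5 months old. Global cerebral ischemia (GCI) was induced in every animal by 20 min of bilateral common carotid occlusion, and RNA was taken after 24 h of reperfusion. In FBN-ARO-KO mice the aromatase gene Cyp19a1 is deleted by a Cre driven by the CaMKIIα promoter, which is active in excitatory forebrain neurons, so by design inhibitory neurons and glia keep the gene. FLOX mice are the controls, and no sham library was analysed here. The sources do not state that the libraries of each genotype are from different animals, so p-values measure the spread between these libraries, which may be technical.

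Between 24333396 and 33076795 reads were counted on genes per library, and 3 counts corresponded to between 0.0905 and 0.122 CPM (counts scaled to a common library size by TMM), a limit that covers counting error only. Cyp19a1 had 4 and 1 counts in the FLOX+GCI libraries against 2 and 2 after deletion, too few to check the genotype. Markers of dentate granule, CA1 and CA3 pyramidal cells were all detected. Of the 14527 genes tested between genotypes by quasi-likelihood in edgeR, 2, that is 0.0138%, had an adjusted p under 0.05. Across 13869 tested genes with a transcript sequence, the log2 fold change followed GC content with a Spearman's rho of -0.55, and the FBN-ARO-KO+GCI libraries differed from each other along GC content with a rho of -0.481, against 0.102 between the FLOX+GCI libraries. Genes are not independent replicates, and these values are descriptions. Because of this trend each member is given both as TMM-scaled values and after an offset that removes the trend of each library over transcript GC content and length.

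The 7 genes lie in the clusters known for this family. In the mouse build mm9, Gabra2 (chr5:71352296-71487088, minus strand), Gabra4 (chr5:71960973-72049547, minus strand) and Gabrb1 (chr5:72091171-72529628, plus strand) share a cluster on chromosome 5 with Gabrg1. Gabra5 (chr7:64663060-64765379) neighbors Gabrg3 on chromosome 7, and Gabrb2 (chr11:42233259-42446092) lies in a cluster with Gabra6 on chromosome 11. Gabra3 (chrX:69678020-69902187) is X-linked, and Gabrd (chr4:154759089-154772221) stands outside these clusters. Whether reads were counted by strand is not given. The span of Gabra5 is overlapped on the other strand by the gene model Gm9962, and pseudogenes lie within Gabra3 and Gabrb1. Whether exons overlap was not examined, so it is not known if reads of these loci were mixed. Apart from Gabrd, with a GC content of 56.8%, the transcripts were poor in GC, from 39.9% for Gabrb2 to 47.3% for Gabra5, against a median of 50.6% for the tested genes with a sequence. The promoters differed among members. The window from 250 bases before to 50 bases after the start was 70% GC for Gabra2, 58.7% for Gabra4 and 66.0% for the first start of Gabrb1, and 43.0% and 39.3% for the starts of Gabra3, against a median of 52.7% over 32851 such windows.

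Windows of 3 chromosome 5 members are shown, in the RefSeq table's build GRCm38.p6, because Gabra2 had the largest difference between genotypes and Gabra4 and Gabrb1 face each other. The annotated start of Gabra4 and the first of the annotated starts of Gabrb1 lie on opposite strands so that their first 388 bases overlap. The second start of Gabrb1 lies 41624 bases from that of Gabra4, and the mm9 spans given above do not overlap. Capitals mark the GC box GGGCGG on either strand. The Gabra2 window is chr5:71095800-71096099 (minus strand), the Gabra4 window chr5:71658259-71658558 (minus strand) and the Gabrb1 window chr5:71657671-71657970 (plus strand), each written 5′ to 3′.
Gabra2: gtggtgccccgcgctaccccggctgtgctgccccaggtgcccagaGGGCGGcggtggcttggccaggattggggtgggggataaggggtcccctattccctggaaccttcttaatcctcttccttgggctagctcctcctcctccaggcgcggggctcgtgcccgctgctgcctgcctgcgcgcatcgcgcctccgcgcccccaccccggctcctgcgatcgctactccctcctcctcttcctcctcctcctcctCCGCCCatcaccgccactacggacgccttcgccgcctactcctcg
Gabra4: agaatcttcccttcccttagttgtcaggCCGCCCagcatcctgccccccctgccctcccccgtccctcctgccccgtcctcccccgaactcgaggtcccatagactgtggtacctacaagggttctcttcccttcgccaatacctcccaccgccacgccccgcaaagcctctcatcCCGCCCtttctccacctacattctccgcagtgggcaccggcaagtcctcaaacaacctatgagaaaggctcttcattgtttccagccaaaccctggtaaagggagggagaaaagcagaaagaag
Gabrb1: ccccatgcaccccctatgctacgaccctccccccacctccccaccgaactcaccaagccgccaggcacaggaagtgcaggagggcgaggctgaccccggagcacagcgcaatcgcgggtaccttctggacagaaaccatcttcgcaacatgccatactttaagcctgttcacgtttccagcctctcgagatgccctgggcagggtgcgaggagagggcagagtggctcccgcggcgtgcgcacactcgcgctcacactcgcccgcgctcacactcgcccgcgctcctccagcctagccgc
RefSeq windows were found for 6 of the 7 members, 10 windows in all, and Gabrd had none in the table. The GC box was in 3 of the 10 windows, those of Gabra2 and Gabra4 and 1 of Gabrb2, and in 35.7% of all windows. The TATA box TATAAA was in 3, both windows of Gabra3, which overlap, and 1 of Gabrb2, and in 13.6% of all windows. The cAMP response element TGACGTCA, the AP-1 site TGACTCA and the nuclear receptor half-site AGGTCA, each searched on both strands, were in 0 of the 10 windows. Receptor half-sites with other letters were not searched. Over all windows the 3 motifs were in 1.79%, 5.2% and 16.3%, in that order. Such matches are letters only and are not evidence of binding.

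Among all subunits, levels per kilobase of the longest transcript (CPM per kb) placed a member first. Gabra5 ranged from 92.9 to 114 CPM per kb over the 4 libraries. Gabra2 came next among the members, and its range of 23.8 to 63.4 CPM per kb was the widest of the members. This place is by the mean over both genotypes. Gabra2 was above Gabrb2 in 3 of 4 libraries, and its FLOX+GCI mean of 34.7 CPM per kb was below that of Gabrb2, at 36.1. Below Gabra2 were Gabrb2 (35.9 to 49.0), Gabra4 (29.2 to 38.9) and Gabra3 (25.8 to 30.8), whose neighboring ranges overlapped. Gabrd, at 11.6 to 17.1 CPM per kb, and Gabrb1, at 7.30 to 9.98, were the lowest members, and their ranges lay apart from each other and from Gabra3. Of the subunits that are no members, Gabrg1 reached 7.03, Gabrr2 0.734 and Gabrg3 0.409 CPM per kb at most. Gabrq, with 5 to 12 counts, and Gabrr1, with 3 to 7, were near the limit of detection, and Gabra6, Gabre, Gabrp and Gabrr3 had at most 3 counts in any library.

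Between genotypes, 6 of the 7 members had a higher fitted level in FBN-ARO-KO+GCI, by 0.14 to 0.77 on the log2 scale, and Gabrd was 0.04 lower. None passed the test over all genes. In edgeR 0 of 7 had an adjusted p under 0.05, as in DESeq2, which gave no adjusted p to 2 of them, and in edgeR's likelihood ratio test. At an unadjusted p under 0.05, 4 members were higher (Gabra2, Gabra4, Gabra5 and Gabrb2), where 8.72% of all tested genes were, and 0 were lower, where 7.82% of all tested genes were. With DESeq2 3 members had an unadjusted p under 0.05. For 5 members both FBN-ARO-KO+GCI libraries lay above both FLOX+GCI libraries, as for 25.9% of all tested genes. The median log2 fold change was 0.19 over the members and -0.01 over all tested genes. With the offset for GC content and length it was 0.09 over the members and 0.03 over all genes, with 1 member, Gabra5, at an unadjusted p under 0.05 and higher, where 7.90% of all genes were. With the offset, the groups stayed apart for 3 members, Gabra2, Gabra4 and Gabra5, where 28.3% of all genes had FBN-ARO-KO+GCI above FLOX+GCI. No member had an adjusted p under 0.05 with the offset (0 of 7).

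**Figure D1:**
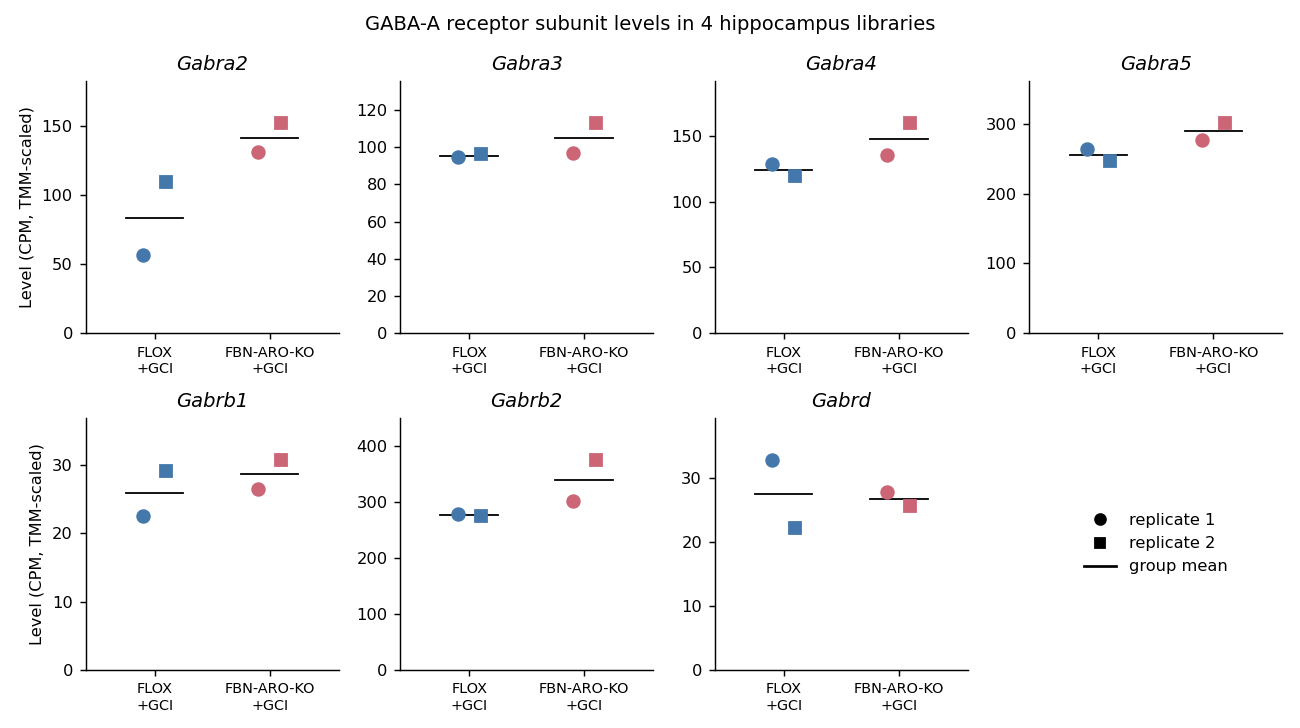
Level of each of the 7 subunit transcripts (TMM-scaled CPM, vertical axis from 0) in the FLOX+GCI and FBN-ARO-KO+GCI libraries; circles are replicate 1, squares replicate 2, and lines the group means. Gabra2 in FLOX+GCI replicate 1, at 56.8 CPM, lies below its other libraries, which range from 109 to 152 CPM.

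Gabra2, whose α2 subunit is concentrated at synapses on the axon initial segment of pyramidal cells, had the largest difference of the 7. Its level was 56.8 and 109 CPM in FLOX+GCI and 131 and 152 CPM in FBN-ARO-KO+GCI, from 1424 and 2693 counts against 4348 and 4440. The groups did not overlap, yet the libraries of FLOX+GCI lay farther apart than FLOX+GCI replicate 2 and either FBN-ARO-KO+GCI library. The mean was 83.0 ± 37.1 CPM in FLOX+GCI and 141 ± 14.4 CPM in FBN-ARO-KO+GCI (SD, n = 2), 1.7-fold higher, a log2 fold change of 0.77 (SE 0.26, edgeR adjusted p = 0.248, where SE is the standard error). Its value depended on FLOX+GCI replicate 1, and the substrain of each mouse is not given in the sources used here. Without that library the log2 fold change was 0.37 (edgeR adjusted p = 0.156), and without FLOX+GCI replicate 2 it was 1.31 (edgeR adjusted p = 4.21e-05). In each of these fits FLOX+GCI is 1 library, assumed to vary like the FBN-ARO-KO+GCI pair, and the second sets the low library alone against that pair. The log2 ratio of replicate 2 to replicate 1 within FLOX+GCI was 0.94, and of 12743 genes with a mean of at least 50 counts, 169, or 1.33%, had a larger ratio in either direction. Its neighbors in the chromosome 5 cluster had ratios of -0.47 for Gabrg1, -0.10 for Gabra4 and 0.37 for Gabrb1. With the offset, Gabra2 had 58.3 and 117 CPM in FLOX+GCI and 131 and 138 CPM in FBN-ARO-KO+GCI, with a log2 fold change of 0.62 (SE 0.27, edgeR adjusted p = 0.446).

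Gabra5 and Gabra4 encode α subunits of receptors that lie largely outside synapses. Gabra5 had 264 and 247 CPM in FLOX+GCI and 278 and 302 CPM in FBN-ARO-KO+GCI. The groups did not overlap, but the nearest libraries of the groups were closer to each other than the libraries within either group. Its log2 fold change was 0.19 (SE 0.08, edgeR adjusted p = 0.289) and 0.16 with the offset (adjusted p = 0.421), the smallest shift between these fits among the members that were higher. Gabra4 had 129 and 120 CPM in FLOX+GCI and 136 and 160 CPM in FBN-ARO-KO+GCI. FBN-ARO-KO+GCI replicate 2 was the high library, and replicate 1 lay near FLOX+GCI. Its log2 fold change was 0.25 (SE 0.10, edgeR adjusted p = 0.274), and 0.09 with the offset (adjusted p = 0.607).

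Gabra3 encodes α3, which is the X-linked α subunit. It had 94.5 and 96.2 CPM in FLOX+GCI and 96.8 and 113 CPM in FBN-ARO-KO+GCI, so that only FBN-ARO-KO+GCI replicate 2 stood off. The log2 fold change of 0.14 (SE 0.09, edgeR adjusted p = 0.462) was 0.01 with the offset (adjusted p = 0.972), where the groups overlapped.

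The β subunits form, with α, the site where GABA binds. Gabrb2 had 278 and 275 CPM in FLOX+GCI and 303 and 376 CPM in FBN-ARO-KO+GCI. The FLOX+GCI libraries were nearly equal, and FBN-ARO-KO+GCI replicate 2 was the highest. The log2 fold change was 0.29 (SE 0.11, edgeR adjusted p = 0.255), the second largest of the members, and 0.05 with the offset (adjusted p = 0.780), where the groups overlapped at 294 and 306 CPM against 301 and 321 CPM. Gabrb1 had 22.5 and 29.2 CPM in FLOX+GCI and 26.5 and 30.8 CPM in FBN-ARO-KO+GCI. In each genotype replicate 2 was above replicate 1, and the groups overlapped. Its log2 fold change was 0.15 (SE 0.15, edgeR adjusted p = 0.616), 0.08 with the offset (adjusted p = 0.844) and -0.02 without FLOX+GCI replicate 1.

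Gabrd encodes δ, the subunit of extrasynaptic receptors that respond strongly to neurosteroids. It had 32.9 and 22.2 CPM in FLOX+GCI, the highest and the lowest of the 4 libraries, and 27.9 and 25.7 CPM in FBN-ARO-KO+GCI. Both FBN-ARO-KO+GCI libraries therefore lay between the FLOX+GCI libraries. The log2 fold change was -0.04 (SE 0.18, edgeR adjusted p = 0.924), 0.14 with the offset (adjusted p = 0.772), 0.27 without FLOX+GCI replicate 1 and -0.30 without FLOX+GCI replicate 2. No direction can be given for Gabrd at this spread.

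**Figure D2:**
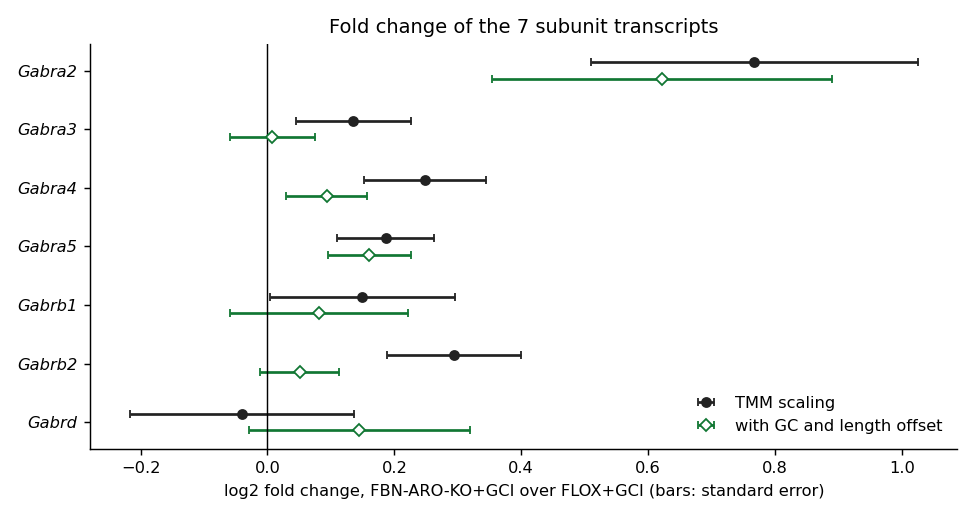
Log2 fold change between FBN-ARO-KO+GCI and FLOX+GCI (horizontal axis) for the 7 subunit transcripts, with TMM scaling (circles) and with the offset for GC content and length (open diamonds); bars are standard errors. With the offset the 6 members that were higher lie nearer 0, with Gabra2 at 0.62 and the other 5 between 0.01 and 0.16.

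The members followed the trend over GC content to different degrees. In 20 bins of tested genes ordered by GC content, the median log2 fold change went from 0.26 in the bin with a median GC of 39.1% to -0.25 in the bin at 61.7%. Gabrb2, at 39.9% GC, had 0.29, and Gabra3, at 43.1%, had 0.14, beside bin medians of 0.26 and 0.16. Gabra2, at 41.7%, had 0.77 beside a bin median of 0.19, and Gabrd, at 56.8%, had -0.04 beside -0.14. After the offset the Spearman's rho across the same genes was 0.0107. The part of GC content in the members' values was not tested beyond this offset.

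**Figure D3:**
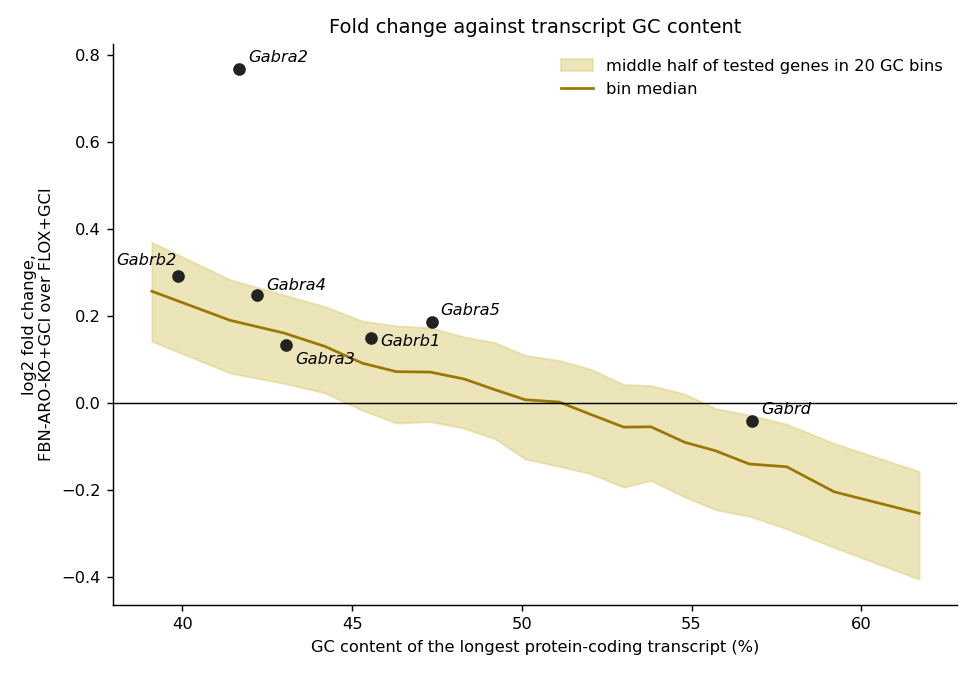
Log2 fold change between genotypes (vertical axis) against GC content of the longest protein-coding transcript (horizontal axis, %) for the 7 members (points), with the median (line) and the range from lower to upper quartile (band) of the tested genes in 20 GC bins. Gabra2 at 0.77 lies far above the band and Gabra5 at 0.19 just above it, and Gabrb2, Gabra4, Gabra3 and Gabrb1 lie inside it.

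The share of each subunit within its own class does not depend on how libraries are scaled. Of the α counts per kb, Gabra5 made up 40.1% and 35.3% in FLOX+GCI against 35.7% and 33.9% in FBN-ARO-KO+GCI, so the groups overlapped. Gabra2 made up 9.57% and 17.3% in FLOX+GCI against 18.6% and 18.8% in FBN-ARO-KO+GCI. The share of Gabra3 was 10.4% and 9.96% in FLOX+GCI and lower, at 8.98% and 9.15%, in FBN-ARO-KO+GCI. The groups did not overlap for Gabra2 or Gabra3, and for both the two-sided exact permutation test gave p = 0.33, the smallest that 2 libraries against 2 can give. Of the β class, Gabrb2 made up 28.5% and 28.7% in FLOX+GCI against 29.2% and 30.9% in FBN-ARO-KO+GCI (exact permutation test, p = 0.33). Gabrd made up between 16.0% and 23.9% of the γ and δ class, with overlapping groups.

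**Figure D4:**
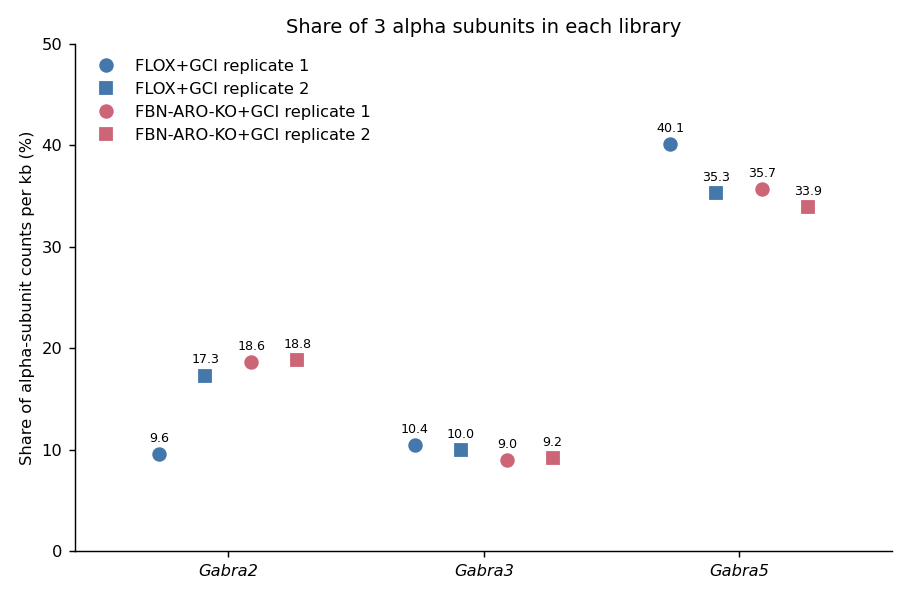
Share (%, vertical axis from 0) of Gabra2, Gabra3 and Gabra5 in the α-subunit counts per kb of each library; circles are replicate 1 and squares replicate 2. Gabra2 is 9.57% in FLOX+GCI replicate 1 and between 17.3% and 18.8% in the other 3 libraries.

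Other subunits were compared in the same fit. Of 12, 7 were tested, 5 of them with a log2 fold change above 0 and 2 below. In edgeR none had an adjusted p under 0.05 (0 of 7). At an unadjusted p under 0.05, 1 was higher, where 8.72% of all tested genes were. The log2 fold change of Gabrg1 was 0.25, that of Gabrg3 0.30 and that of Gabrr2 -0.13, with standard errors of 0.25, 0.22 and 0.38. With the offset these values were -0.09, 0.14 and -0.04, and 0 of the 7 tested had an unadjusted p under 0.05. Gabrq, which encodes θ, had 11 and 12 counts in the FLOX+GCI libraries against 8 and 5, too few for a firm statement.

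Genes that anchor, supply or set the driving force of these receptors were taken from lists. Over all 4 lists, 0 of 38 tested genes reached an adjusted p under 0.05 in edgeR. At an unadjusted p under 0.05, 4 were higher and 2 lower, where 8.72% and 7.82% of all tested genes were. Of 18 genes for clustering, anchoring and trafficking, 2 were higher and 1 lower at an unadjusted p under 0.05, with a median log2 fold change of 0.05. The synaptic adhesion gene Nlgn2 had 292 and 287 CPM in FLOX+GCI and 255 and 250 CPM in FBN-ARO-KO+GCI, with a log2 fold change of -0.20 that was 0.01 with the offset. Plcl1, for a protein that binds β subunits and acts in receptor trafficking, had 0.25 and Mdga1, for an adhesion protein that binds neuroligins, 0.20, and with the offset these were 0.18 and 0.36. With the offset 3 genes of this list were higher and 0 lower at an unadjusted p under 0.05, where 7.90% of all tested genes were higher. Gphn, for the scaffold gephyrin, had 0.11 (SE 0.07).

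Of 9 genes for GABA synthesis, packaging, uptake and breakdown, 0 were higher and 1 lower at an unadjusted p under 0.05. This was the vesicular GABA transporter Slc32a1, with 83.1 and 73.6 CPM in FLOX+GCI and 64.1 and 60.1 CPM in FBN-ARO-KO+GCI, with a log2 fold change of -0.34 that was -0.06 with the offset. The transporter genes Slc6a13 and Slc6a12 spread widely within each genotype. Slc6a13 had 580 and 241 counts in the FLOX+GCI libraries against 427 and 69, and Slc6a12 had 93 and 32 against 58 and 3. Among 6 chloride transporters and kinases, the importer Slc12a2 had the smallest p, with a log2 fold change of 0.38 (SE 0.16), and the exporter Slc12a5 had -0.01. Wnk2 and Wnk1, kinases that regulate these transporters, had -0.21 and 0.13. With the offset Slc12a2 had 0.23, Slc12a5 0.15 and Wnk2 0.02, and 0 genes of this list had an unadjusted p under 0.05. Wnk1 was left uncorrected, as its symbol was not matched to a single annotated locus with a transcript sequence. Among 5 GABA-B receptor genes, the auxiliary subunit Kctd12 had 199 and 191 CPM in FLOX+GCI and 228 and 289 CPM in FBN-ARO-KO+GCI, with a log2 fold change of 0.40, and had no transcript sequence for the offset. Kctd8 had 0.16, and the receptor subunit Gabbr2 had -0.06.

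In whole hippocampus, fewer cells of a type and less RNA per cell cannot be told apart. Dentate granule cell markers, the cells typical of Gabra4 and Gabrd, had a summed level of 481 to 502 CPM in FLOX+GCI and 583 to 589 CPM in FBN-ARO-KO+GCI. Of these 6 markers 5 had a log2 fold change above 0, among them Calb1 at 0.53 and Dsp at 0.42, while C1ql2 had -0.45. At an unadjusted p under 0.05, 3 were higher and 1 lower, where 8.72% and 7.82% of all tested genes were. With the offset Calb1 had 0.25, Dsp 0.41 and C1ql2 -0.11. There 2 higher and 0 lower had an unadjusted p under 0.05, where 7.90% of all tested genes were higher. Interneuron markers summed to 680 to 692 CPM in FLOX+GCI and 563 to 606 CPM in FBN-ARO-KO+GCI, with 5 of 7 below 0. At an unadjusted p under 0.05, where 7.82% of all tested genes were lower, 3 were lower, Sst at -0.38, Npy at -0.50 and Cck at -0.19. With the offset these were -0.12, -0.32 and 0.06, and 1, Npy, was lower at an unadjusted p under 0.05. The share of all genes that were lower with the offset was not computed. Pan-neuronal markers summed to 5776 to 6209 CPM in FLOX+GCI and 6236 to 7106 CPM in FBN-ARO-KO+GCI, with 4 of 6 above 0. The abundant Snap25 had 0.20, whereas Rbfox3 had -0.17 and Tubb3 -0.14, and with the offset these were 0.11, 0.03 and 0.07. CA1 markers summed to 861 to 875 CPM in FLOX+GCI and 822 to 837 CPM in FBN-ARO-KO+GCI. Their median log2 fold change was -0.10 and, with the offset, 0.0035. Of the 5 CA1 markers 1 had a log2 fold change above 0 and 4 below. At an unadjusted p under 0.05, 0 were higher and 1, Wfs1 at -0.16, lower, where 7.82% of all tested genes were lower. With the offset 1, Fibcd1 at 0.22, was higher at an unadjusted p under 0.05, where 7.90% of all tested genes were, and 1, Dcn at -0.31, lower. Markers of the thalamus, a region rich in Gabra4 and Gabrd, summed to 61.0 and 98.7 CPM in FLOX+GCI and 61.4 and 58.1 CPM in FBN-ARO-KO+GCI. The high sum in FLOX+GCI replicate 2 was that of Slc17a6, with 25.2 and 64.3 CPM in FLOX+GCI against 22.3 and 25.3 CPM. Prkcd had 22.2 and 22.4 CPM in FLOX+GCI against 27.9 and 21.4 CPM, and Lef1 5.51 and 4.06 CPM against 3.08 and 2.94 CPM. Of the 5 thalamus markers 2 had a log2 fold change above 0 and 3 below. At an unadjusted p under 0.05, 0 were higher and 2 lower, where 7.82% of all tested genes were lower. These were Slc17a6 at -0.91 and Lef1 at -0.67. With the offset both were still lower at this threshold, at -1.06 and -0.635. No marker of these 5 lists was at 0 in all libraries. Their part in the subunit values was not tested.

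Among the 5 genes whose pattern over the 4 libraries was nearest to the mean of the 7 members were St13, Angpt1, Pds5a and Gpkow. Likeness was the Euclidean distance between centered log2 CPM values, over 12731 genes with a mean of at least 50 counts that encode no subunit. Their distances were 0.0134 to 0.0200, small because these genes were picked as the nearest. The members were not picked by distance, so the 2 sets cannot be compared. Distances of members from their own mean ran from 0.123 for Gabrb2 to 0.571 for Gabrd and 0.840 for Gabra2. The GC content of the 4 genes nearest in pattern named above was between 39.4% and 47.0%. Their log2 fold changes of 0.25 to 0.27 were 0.05 to 0.20 with the offset.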

How the data were processed

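Read counts per gene symbol were measured in 4 hippocampus libraries, 2 per genotype, grouped and numbered by their titles. Per the labels, single-end reads of 50 nt were aligned by the authors with TopHat2 2.0.8b (build mm9) and counted with HTSeq. The deposited values are raw counts without normalization. The HTSeq version, strand setting and annotation release are not given in the sources used here. Each file also holds 5 counters of unassigned reads, which were left out, and reads that aligned to more than 1 place made up 35.1 to 36.5% of each file.

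From the counts, genotypes were compared over all genes by quasi-likelihood in edgeR 4.0.16 (R 4.3.3) after TMM scaling. Genes were kept by filterByExpr at a minimum count of 10, and p-values were adjusted by Benjamini-Hochberg, with a threshold of 0.05. Standard errors were taken as the log2 fold change over the square root of F. Alternatives were DESeq2 1.42.0, DESeq-style size factors, library totals, other count filters, a likelihood ratio test in edgeR, a block for the replicate number, each library left out, and an offset from natural splines (5 degrees of freedom) over transcript GC content and length. The offset left 658 tested genes uncorrected, whose symbols were not matched to a single annotated locus with a coding transcript sequence. The fits were tested on simulated data. Transcripts came from GENCODE M1 (NCBIM37, the build mm9), with the longest coding transcript per gene, and promoter windows from RefSeq on GRCm38.p6. Of the list entries, Map2 was matched by its older symbol and Wnk3 was not matched.

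The members and the lists were chosen with earlier results of these data known. Named genes are the members, the other subunits with a count, the 3 genes with the smallest p of each pathway list without an adjusted call, and the 5 genes nearest in pattern. Some of these genes are not reported here. Gphn, Slc12a5 and the markers named in the text were chosen after their values were seen.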

Additional observations from a re-analysis of the deposited data

How the results depend on the processing

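Over all genes, 292 had an adjusted p under 0.05 with DESeq2, 294 with edgeR's likelihood ratio test, 5 with every gene of at least 1 count and 184 with the replicate block, against 2, and with 1 library left out between 0 and 193. Members called were 0 of 7 in each fit except the replicate block, where Gabra2 was called (1 member, log2 fold change 0.83, adjusted p = 0.00557), and without FLOX+GCI replicate 2; over the libraries left out the count was between 0 and 1. The libraries share a replicate number only, the deviations of same-numbered libraries correlated at 0.129, and the block with the offset called 0. Members higher at an unadjusted p under 0.05 numbered 1 with the offset, where 7.90% of all tested genes were, against 4, where 8.72% were. With the offset and the block they numbered 1, and the share of all genes was not computed for the block. Members lower numbered 0 in each fit of all 4 libraries. With a library left out, the median log2 fold change of the members was 0.12 to 0.27, the 0.12 without FBN-ARO-KO+GCI replicate 2. The share of all genes at an unadjusted p under 0.05 was not computed there, so member counts could not be read beside it. Groups did not overlap for 3 members with the offset, with or without the block. With a library left out this number was 5 to 7, counting either direction. Gabrd counted as higher without FLOX+GCI replicate 1 and as lower without FLOX+GCI replicate 2. In these settings 1 group is a single library, which makes it easier for groups not to overlap. The same share over all genes was not computed, so these numbers are no sign of a clearer difference.

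Of 91 recomputed fold changes of members, 84 kept their direction with no change of call, although Gabrb1 and Gabrd had no adjusted p with DESeq2. Another 2, both of Gabra2, were stronger, at 0.83 with the replicate block and 1.31 without FLOX+GCI replicate 2. A further 5 changed sign. These were Gabrb1 without FLOX+GCI replicate 1 (-0.023, with a range of -0.023 to 0.34 over the libraries left out) and Gabrd (range -0.30 to 0.27) with the offset (0.14), with the offset and the block (0.17), without FLOX+GCI replicate 1 (0.27) and without FBN-ARO-KO+GCI replicate 2 (0.02). The cause was not tested. For shares, leaving out libraries was added after the data were seen. The log2 ratio of the share was 0.11 to 0.97 for Gabra2, -0.25 to 0.14 for Gabrb1 and 0.028 to 0.11 for Gabrb2, and it also changed sign for Gabrd (-0.39 to 0.03, against -0.18) and Gabra4 (-0.15 to 0.04, against -0.06). For the first 3 genes the values farthest from the whole were those without FLOX+GCI replicate 2 for Gabra2 and Gabrb1 and without FBN-ARO-KO+GCI replicate 2 for Gabrb2. Raw counts or merged exons in place of the longest transcript moved no share ratio beyond the spread between libraries.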
